A study of Homo sapiens with 4 samples.

Results

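Transcript levels in Arp5 KO cells were set against those in wild-type (WT) cells on 2 of the 4 single-colour Agilent arrays of the series, 1 array per cell line. For each probe, the measure was the log2 difference Arp5 KO minus WT, taken for the 22555 of 41000 probes that were well above background on both arrays. Before the difference was formed, the signal of a probe was divided by the 75th percentile of its array, and levels are given below as a percentage of that percentile (scaled signal). Both lines derive from Nalm-6, an established line of human pre-B leukemia. The WT cells are the unmodified line, and the Arp5 KO cells are 1 established line in which targeting vectors had disrupted both alleles of the gene for actin-related protein 5 (ACTR5, called ARP5 in the study). The other arrays of the series, from Arp8 KO cells and from cells labelled as overexpressing Arp8 (Arp8 OE), were used here only to see which of the 2 arrays compared stood apart.

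The labels disagreed on the treatment of the Arp5 KO cells. The sample title, the treatment protocol and the design of the series gave heme, at 20 uM for 12 hours, to all cultures, whereas the source name and the treatment field of the Arp5 KO sample gave no heme. All fields of the WT sample gave heme. Genotype and treatment therefore cannot be told apart in any difference given below. Since each line had 1 array, the arrays hold no spread between cultures, no test was possible, and "higher" and "lower" describe these 2 arrays. The Arp8 KO sample was likewise labelled as without heme in its treatment field, so that WT and Arp8 OE were the 2 arrays whose labels all gave heme.

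INO80 is a chromatin remodeller that slides and exchanges nucleosomes with the energy of ATP, and Arp5 and Arp8 are actin-related proteins built into it. In cells that meet free heme, the repressor BACH1 is released from DNA, and NRF2 with its small MAF partners then drives genes for heme breakdown, glutathione synthesis and iron storage, with HMOX1, the gene of heme oxygenase-1, as the best known target. Oxidant and protein-damage stress also engage the heat shock factors, the unfolded protein response and ATF4. The comparison addressed which transcripts, HMOX1 among them, differ where Arp5 is missing.

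The 4 arrays lay on the same slide, and the 2 compared were alike in signal: WT had a 75th percentile of 735.1 and Arp5 KO one of 739.6 in units of processed intensity, 57.2% and 57.1% of probes were well above background, and 0 spots were saturated. All 10 B-precursor markers with a probe (among them CD79A, CD79B, PAX5, EBF1, VPREB1, MME and RAG1) were well above background on both arrays, with a scaled signal, summed over measured probes, of 34445% in WT and 34367% in Arp5 KO. Of the T-cell markers with a probe, 4 of 9 were measured on both arrays, and CD2, CD3D, CD3E, CD3G and TRAT1 were well above background on neither. The 4 measured ones, CD4, CD8A, LCK and ZAP70, summed to 988% in WT and 1095% in Arp5 KO. Of 10 myeloid markers, 7 were well above background on neither array, among them MPO, LYZ and S100A8, and CD14 and CD33 together summed to 59.9% in WT and 74.0% in Arp5 KO. Of 10 erythroid markers with a probe, 7 were on neither, among them HBB and GATA1, and EPOR and HBA1 summed to 64.2% and 60.3%. For probes printed at 10 positions, the median SD of the difference over spots was 0.054 on the log2 scale, and 0.125 among the dimmest of them, which measures spot error within an array and not the spread between cultures.

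Few transcripts differed by over 2-fold. In Arp5 KO 155 probes (0.687% of those measured) were over 2-fold higher and 203 (0.9%) over 2-fold lower than in WT, and 358 (1.59%) lay past 2-fold either way. The median difference over all probes was 0.005, with 5th and 95th percentiles of -0.45 and 0.45. Past 4-fold there were 19 higher and 33 lower probes. Genes at the 2-fold limit were THRA at 1.01 and FOXP4 at 0.997 on the higher side, and CA2 at -1.01 and MDM1 at -0.9996 on the lower side. Most of the large differences lay in dim probes. Among the 11277 probes above the median level, 18 were higher and 25 lower, or 0.381% in all, against 137 and 178 of the 11278 probes below it, or 2.79%.

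**Figure D1:**
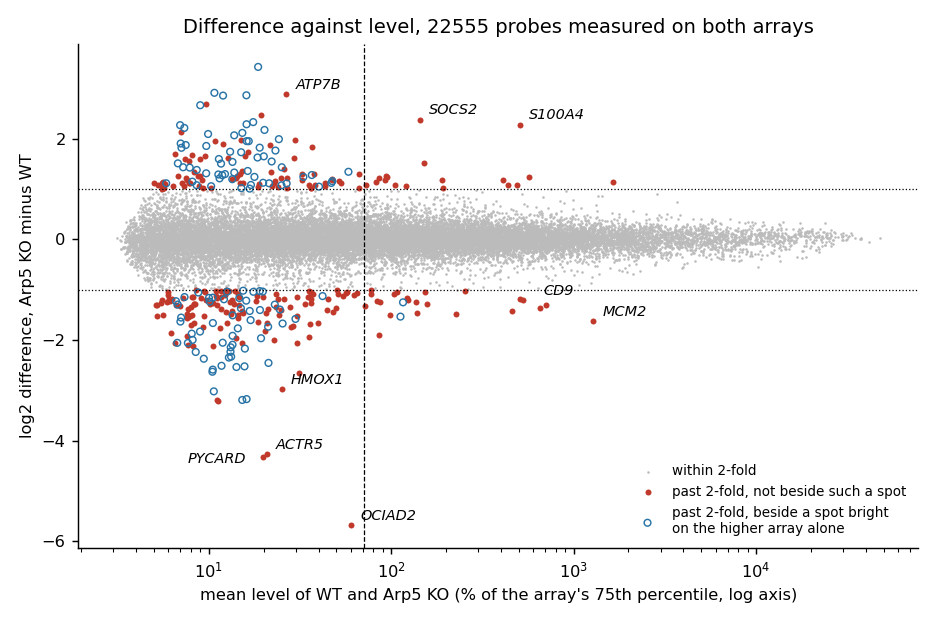
Log2 difference Arp5 KO minus WT (vertical axis) against the mean scaled signal of both arrays (horizontal log axis, percent of the 75th percentile) for 22555 probes. Red points lie past 2-fold (dotted lines), open blue circles are those next to a spot that was bright on the higher array alone, and the dashed line is the median level. OCIAD2, PYCARD and ACTR5 lie lowest, and S100A4, SOCS2, MCM2 and CD9 stand out among the probes right of the dashed line.

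ACTR5, the disrupted gene, had 1 probe. Its scaled signal was 91.4% in WT and 4.73% in Arp5 KO, beside 84.6% for Arp8 KO and 75.4% for Arp8 OE. The Arp5 KO array alone was low, and the difference from WT was -4.27, or 19.3-fold. With another background correction (normexp, which adds an offset to every spot), the difference was -2.79. Whether the probe lies inside the disrupted part of the gene was not given in the sources used here. The measured genes next to ACTR5 on the chromosome differed by 0.28 (SLC32A1), -0.06 (PPP1R16B), -0.30 (FAM83D) and -0.09 (DHX35).

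Of the other INO80 subunits, all 15 had a probe measured on both arrays, and the median over the 23 probes of the whole complex, ACTR5 included, was 0.00. ACTR8, which encodes Arp8, was at -0.23 and -0.09 on its 2 probes. The helicases RUVBL1 and RUVBL2, the subunits INO80C, NFRKB, MCRS1, UCHL5 and ACTL6A, and the factor YY1 all lay between -0.07 and 0.09. INO80, the ATPase of the complex, was at 0.70 and 0.78 on 2 probes. INO80B was past 2-fold higher, at 1.99, with 12.2% in WT and 48.3% in Arp5 KO, beside 12.5% for Arp8 KO and 12.5% for Arp8 OE. Its only probe lay next to 2 spots that were bright on the Arp5 KO array alone, and the part of these spots in its value was not tested. The 54 probes of the other remodellers (SWI/SNF, ISWI, CHD, SRCAP and TIP60 complexes) had a median of 0.00 and ranged from -0.37 to 0.50.

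Beside ACTR5, OCIAD2, PYCARD and CD9 were over 2-fold lower in Arp5 KO than on each of the other arrays, as was DEPP1 below. Other genes, HMOX1 and MCM2 among them, were also lowest in Arp5 KO but lay within 2-fold of Arp8 KO. OCIAD2, which encodes an OCIA domain protein, had the largest difference of all measured genes. Its scaled signal was 433% in WT and 8.44% in Arp5 KO, beside 141% for Arp8 KO and 197% for Arp8 OE, a difference of -5.68, or 51.3-fold. Its level in Arp8 KO and Arp8 OE was also over 2-fold below WT, so that both WT and Arp5 KO lay apart. PYCARD, which encodes the inflammasome adaptor ASC, was at 89.5% in WT and 4.45% in Arp5 KO, beside 128% for Arp8 KO and 190% for Arp8 OE, a difference of -4.33. ACTR5, OCIAD2 and PYCARD had 1 probe each, and none of the 3 lay next to a spot bright on 1 array alone. Under normexp OCIAD2 was at -4.46 and PYCARD at -2.64.

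In the chromosomal neighbourhood of PYCARD, PYDC1, a pyrin-domain gene, was also low in Arp5 KO alone, at 6.39% in WT and 1.03% in Arp5 KO, beside 7.51% for Arp8 KO and 11.7% for Arp8 OE. The Arp5 KO value was not well above background, which bounds the difference at -1.09. PRSS36, on the other side, was at 0.52, and ITGAM was well above background on neither array. TRIM72, between PYCARD and PYDC1, had 1 probe at 38.0% in WT and at 0.83% to 1.01% on the other 3 arrays, and a further probe that was well above background on neither array. The TRIM72 probe measured in WT lay next to 2 spots bright on WT alone. The neighbours of OCIAD2 were at -0.19 (OCIAD1), -0.05 to -0.18 over 3 measured probes (FRYL) and 0.36 (DCUN1D4). The run of TNF, LTB and LST1 was also lower, at -1.68 and -1.47 and with a bound of -1.10, but for TNF the WT array stood apart. Other pairs of neighbouring genes past 2-fold were mixed. Some went the same way, among them HCST and TYROBP at 1.08 and 1.07 and TRIM47 and TRIM65 at 1.01 and 1.55. Others went in opposite directions, among them HEMK1 and CISH at -1.03 and 1.25 and ATP7B and ALG11 at 2.88 and -1.06. Wider windows would not show a run as short as that of TNF. Over them, the medians of 23 chromosomes lay between -0.03 and 0.04, and those over runs of 31 neighbouring measured genes between -0.18 and 0.20.

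CD9, a tetraspanin of B-cell precursors, was among the brightest probes past 2-fold. It was at 1047% in WT and 407% in Arp5 KO, beside 1097% for Arp8 KO and 1307% for Arp8 OE, so that the Arp5 KO array was the low one, by -1.36 against WT. DEPP1, a stress-induced regulator of autophagy, was at 38.4% in WT and 10.9% in Arp5 KO, beside 28.6% for Arp8 KO and 84.4% for Arp8 OE on its brighter probe. Both of its probes were low in Arp5 KO, at -1.82 and -1.66 against WT, and the dimmer one came to -0.89 under normexp.

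HMOX1, the gene the study centred on, had a scaled signal of 70.5% in WT and 8.94% in Arp5 KO, beside 9.37% for Arp8 KO and 17.0% for Arp8 OE. WT stood apart from the other 3 arrays, and the Arp5 KO difference was -2.98, or 7.88-fold. The 9 usable spots of the probe gave an SD of 0.075 for this difference. Under normexp it was -2.08. The probe lay next to 1 spot bright on Arp5 KO alone, the array with the lowest HMOX1 signal. The genes beside HMOX1 were at 0.02 (TOM1), -0.03 (HMGXB4) and -0.10 (MCM5). Arp8 OE, labelled as treated with heme, also lay below WT.

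The remaining steps of heme handling showed no difference of that size. Of 11 genes of heme breakdown and transport, 8 were measured, and HMOX1 was the 1 gene past 2-fold. The constitutive enzyme HMOX2 was at 0.15 and 0.21, the biliverdin reductases BLVRA and BLVRB at 0.07 and 0.00, and the heme exporters FLVCR1 and ABCG2 between 0.05 and 0.18. The 18 probes of heme synthesis had a median of 0.00, with ALAS1, the rate-limiting enzyme, at -0.06 and 0.04 and FECH, which inserts the iron, at -0.32 and -0.01. Iron storage and uptake genes had a median of -0.09 over 25 probes, with 20 below 0. Of the 5 probes for FTH1, the ferritin heavy chain, 4 lay between -0.38 and -0.27 and 1 at 0.22, whereas TFRC, the transferrin receptor, was at 0.03.

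Targets of NRF2 and BACH1 lay low as a list. The median over 33 probes was -0.25, against 0.005 over all probes, and 28 of the 33 (84.8%) were below 0, against 49.1% of all probes. Past 2-fold were 0 higher and 3 lower probes, against 0.687% and 0.9% of all probes. Of the 3, 1 was for HMOX1 and 2 for SLC7A11, the cystine transporter. On its brighter probe SLC7A11 was at 62.5% in WT and 15.01% in Arp5 KO, beside 6.21% for Arp8 KO and 62.6% for Arp8 OE, and both measured probes gave -2.06. WT and Arp8 OE were the high arrays. The quinone reductase NQO1 was at -0.67, the glutathione synthesis subunit GCLM at -0.66, glutathione reductase GSR at -0.41 and -0.36, and the autophagy receptor SQSTM1 at -0.33. The catalytic subunit GCLC was at -0.04. Thioredoxin, peroxiredoxin, catalase and superoxide dismutase genes had a median of -0.13 over 20 probes with 0 past 2-fold, and glutathione enzymes one of 0.05 over 23. That median leaves out 3 glutathione genes well above background in WT and not in Arp5 KO. It also leaves out GSTM5, whose 2 probes were well above background in Arp5 KO and not in WT. GSTK1, a glutathione transferase, was at 34.0% in WT and 0.68% in Arp5 KO, beside 62.6% for Arp8 KO and 48.7% for Arp8 OE, at least 11.4-fold lower in Arp5 KO alone and beside no bright spot. GPX3, a secreted glutathione peroxidase, was at least 7.31-fold lower, also beside no bright spot. It was at 21.9% in WT and 1.98% in Arp5 KO, beside 1.45% for Arp8 KO and 5.22% for Arp8 OE. GSTM3 was at least 23.5-fold lower, beside 2 spots bright on WT alone. It was at 70.4% in WT and between 0.82% and 1.01% on the other arrays. For GPX3 and GSTM3, WT was thus the high array. Members named here and below within 2-fold were chosen after their values were seen.

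The regulators themselves had a median of -0.03 over 15 probes, with a range of -0.91 to 1.82 and 1 probe past 2-fold. NFE2L2, which encodes NRF2, was at -0.16, its inhibitor KEAP1 at -0.22, MAFG at -0.39 and -0.33, and MAFF at -0.91. BACH1 was at 0.05 on its brighter probe, with 86.5% in WT and 89.3% in Arp5 KO. A dim probe for BACH1 gave 1.82, with 3.78% in WT and 13.3% in Arp5 KO, beside 4.77% for Arp8 KO and 1.69% for Arp8 OE. That probe lay next to 1 spot bright on the Arp5 KO array alone and came to 0.50 under normexp, so that the 2 probes of this gene disagreed.

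**Figure D2:**
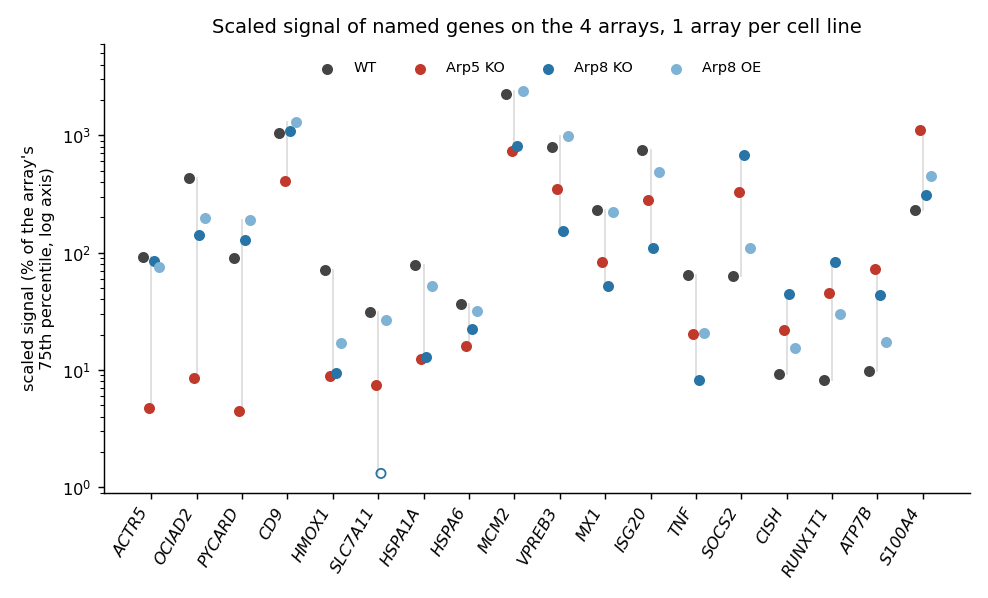
Scaled signal (vertical log axis, percent of the array's 75th percentile) of 18 named genes on the 4 arrays, each point 1 array and each gene shown by its probe with the largest difference between Arp5 KO and WT. Open circles are not well above background. Arp5 KO lies over 2-fold below all other arrays for ACTR5, OCIAD2, PYCARD and CD9. WT is the high array for HMOX1 and TNF, and S100A4 is highest in Arp5 KO.

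Heat shock genes had a median of -0.27 over 35 probes, with 31 (88.6%) below 0. Past 2-fold lower were 4 of the 35 probes, against 0.9% of all measured probes. They covered 2 of the 18 measured genes, with 3 of the 4 for HSPA1A. HSPA1L, BAG3 and HSPA2 had a probe well above background in WT and none in Arp5 KO, and are left out of these counts. Of these, HSPA1L was at least 3.79-fold lower, beside no bright spot. It was at 11.3% in WT and 2.97% in Arp5 KO, beside 3.66% for Arp8 KO and 2.65% for Arp8 OE, with WT the high array. HSPA1A, the inducible HSP70, was at 78.7% in WT and 12.4% in Arp5 KO, beside 12.8% for Arp8 KO and 51.4% for Arp8 OE on the probe with the largest difference, -2.66. On this probe both knockout arrays were low and both arrays labelled only with heme were high. A further pair of brighter probes for HSPA1A gave -1.24 and -1.22. On those probes Arp8 OE was also below WT, at -0.84 and -0.82. The near-identical copy HSPA1B may share these probes, which leaves the split between the copies uncertain. HSPA6, a strictly stress-induced HSP70, was at 36.2% in WT and 15.9% in Arp5 KO, beside 22.2% for Arp8 KO and 31.6% for Arp8 OE, a difference of -1.18 that came to -0.70 under normexp. Within 2-fold, DNAJB4 was at -0.93 and -0.86, HSPH1 at -0.45, DNAJB1 at -0.44, HSPB1 at -0.44 to -0.35 over 3 probes and HSP90AA1 at -0.56 to -0.12 over 4. The constitutive HSPA8 ranged from -0.20 to 0.32 over 4 probes, and the factors HSF1 and HSF2 were at 0.10.

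The promoters of HSPA1A and HSPA6 are shown because both genes passed 2-fold and belong to the family driven by heat shock factors. They run from 250 bases before to 50 bases after the transcription start, from RefSeq on GRCh38.p14, 5′ to 3′ on the gene's own strand, with matches to the heat shock element core GAANNTTC in capitals. The core reads the same on both strands.
HSPA1A, chr6:31815293-31815592, plus strand: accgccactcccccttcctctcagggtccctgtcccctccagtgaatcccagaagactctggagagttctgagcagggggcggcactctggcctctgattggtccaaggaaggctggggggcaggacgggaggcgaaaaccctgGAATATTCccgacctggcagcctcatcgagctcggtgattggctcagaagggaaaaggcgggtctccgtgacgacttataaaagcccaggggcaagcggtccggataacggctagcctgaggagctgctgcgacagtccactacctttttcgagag
HSPA6, chr1:161524290-161524589, plus strand: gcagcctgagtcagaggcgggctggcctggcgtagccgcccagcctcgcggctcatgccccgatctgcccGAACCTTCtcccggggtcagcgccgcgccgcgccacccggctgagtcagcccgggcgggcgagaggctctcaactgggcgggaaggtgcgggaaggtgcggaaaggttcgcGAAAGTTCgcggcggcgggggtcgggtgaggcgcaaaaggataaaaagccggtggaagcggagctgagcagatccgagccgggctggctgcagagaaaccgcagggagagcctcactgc
HSPA1A held 1 match and HSPA6 held 2. The same core was present in 2377 of 35116 promoters of this length (6.77%), and in those of 12 of the 22 heat shock list genes that had a promoter in the table, HSP90AA1, DNAJB1, HSPA8 and HSPB1 among them. A match is a description of the sequence and not a measured binding site.

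Chaperones of the endoplasmic reticulum and genes of the unfolded protein response had the lowest median of all 39 lists, -0.31 over 26 probes. Only ATF6, at 0.03, lay above 0, and 0 probes were past 2-fold. HSP90B1 was at -0.58 and -0.26, MANF at -0.54, HERPUD1 at -0.49, HSPA5 (BiP) at -0.46 and -0.34, PDIA4 at -0.43 and CALR at -0.29, while the factor XBP1 was at -0.13 and -0.07. Proteasome subunits, all 34 of them measured, had a median of -0.24 over 47 probes, with 43 below 0 and 0 past 2-fold. PSMD4, a ubiquitin receptor, was lowest at -0.68 and -0.63. The 3 subunits that replace catalytic ones in the immunoproteasome, PSMB8, PSMB9 and PSMB10, were at 0.06, 0.06 and 0.24. ATF4 targets and amino acid synthesis genes had a median of -0.18 over 41 probes, with 29 below 0, and DDIT3 (CHOP) was at -0.64, PSAT1 at -0.58, CHAC1 at -0.56 and ATF4 itself at -0.12 and -0.04.

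Median differences from WT of the same stress lists on the other 2 arrays, which share the WT array with this comparison, were -0.45 in Arp8 KO and -0.32 in Arp8 OE for heat shock genes, -0.51 and -0.55 for the endoplasmic reticulum genes, and -0.53 and -0.34 for the proteasome. For the NRF2 and BACH1 targets they were -0.77 and -0.33. All of these medians were below 0, as in Arp5 KO. For the ATF4 targets the medians were -0.27 in Arp8 KO and 0.26 in Arp8 OE.

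**Figure D3:**
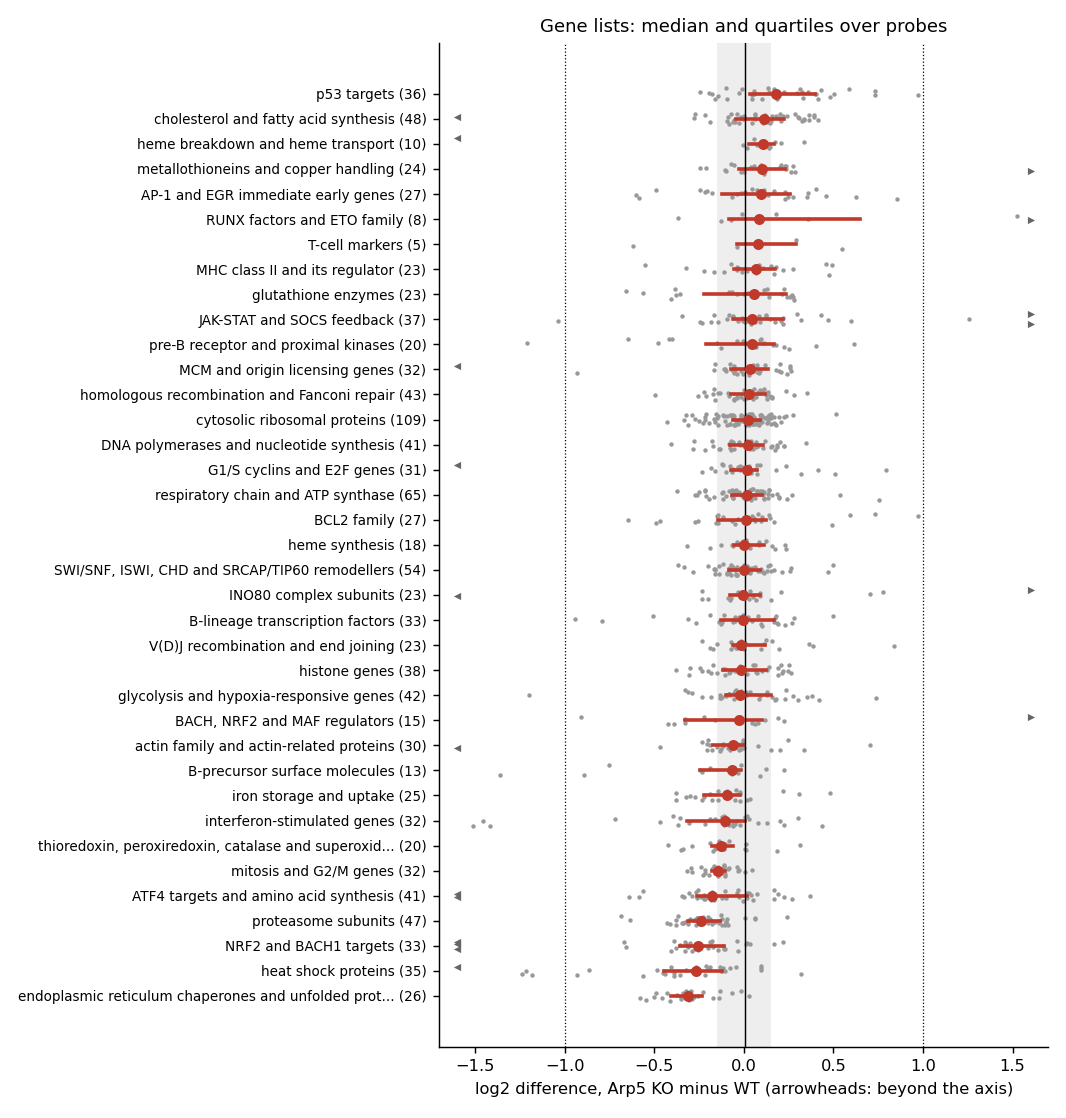
Log2 differences Arp5 KO minus WT (horizontal axis) for the 37 gene lists with at least 5 measured probes, number of probes in brackets. Grey dots are probes, red dots list medians, red bars the quartiles, the shaded band the quartiles of all 22555 probes, and dotted lines mark 2-fold. Endoplasmic reticulum, heat shock, NRF2 and BACH1 and proteasome lists lie lowest, at -0.31 to -0.24, and p53 targets highest, at 0.18.

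Among growth and genome-maintenance genes, MCM2 stood apart from its partners. MCM2, a subunit of the replicative helicase, was at 2252% in WT and 729% in Arp5 KO, beside 803% for Arp8 KO and 2404% for Arp8 OE, a difference of -1.63. MCM4 was at -0.93, whereas MCM3, MCM5, MCM6 and MCM7 were at 0.24, -0.10, 0.05 and 0.20, and the licensing list had a median of 0.04 over 32 probes. MCM2 had 1 probe. Genes of mitosis and G2/M had a narrow spread around a median of -0.15, with 30 of 32 probes below 0 and a range of -0.31 (CENPA) to 0.04 (NEK2). CDC20 was at -0.29, PTTG1 at -0.23 and CCNA2 at -0.22. DNA polymerase and nucleotide synthesis genes (0.02), homologous recombination and Fanconi genes (0.03), cytosolic ribosomal proteins (0.03 over 109 probes), the respiratory chain (0.02 over 65) and histones (-0.02) had medians near 0, with 0 probes past 2-fold in each of these lists. The retinoblastoma relative RBL1 was at -0.12 on its brighter probe, and at -2.06 on a dim probe next to 1 spot bright on WT alone.

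Targets of p53 lay above 0 as a list, with a median of 0.18 over 36 probes, 27 of them above 0 and 0 past 2-fold. The proapoptotic gene BBC3 was at 0.97, 0.73 and 0.10 on 3 probes, ZMAT3 at 0.73 and -0.03, TP53INP1 at 0.59 and PLK3 at 0.50. CDKN1A, the p21 cell-cycle inhibitor, was at 0.22 and -0.01, and MDM2 between -0.10 and 0.33 over 4 probes. The corresponding medians against WT were 1.03 in Arp8 KO and 0.34 in Arp8 OE. Cholesterol and fatty acid synthesis genes had a median of 0.11 over 48 probes. The sterol desaturase SC5D gave 0.00 and 0.11 on 2 probes, and -2.35 on 1 dimmer probe that had a WT-only bright spot beside it.

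Of the B-lineage lists, few members lay past 2-fold. The 33 probes of B-lineage transcription factors had a median of -0.01 and 0 past 2-fold, with PAX5 at 0.02, EBF1 at -0.01 and 0.10 and TCF3 at 0.04 and 0.27. BCL6 was at -0.94 and SPI1 (PU.1) at -0.79. Of the pre-B receptor and its kinases, VPREB3, a chaperone of the receptor chains, was at 801% in WT and 346% in Arp5 KO, beside 153% for Arp8 KO and 994% for Arp8 OE. WT and Arp8 OE were the high arrays, and the difference from WT was -1.21. CD79A was at -0.65, BLK at -0.48, VPREB1 at -0.42 and CD79B at -0.40, whereas the adaptor BLNK was at 0.62. The surface molecules had a median of -0.07 over 13 probes, with 10 below 0 and 1 past 2-fold, for CD9. Of the others, CD22 was at -0.89 and MME (CD10) at -0.05 and 0.22. V(D)J recombination and end joining genes had a median of -0.02 over 23 probes.

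Several interferon-induced and inflammatory genes were lower in Arp5 KO. MX1, an interferon-induced antiviral GTPase, was at 229% in WT and 83.4% in Arp5 KO, beside 52% for Arp8 KO and 224% for Arp8 OE, a difference of -1.46. ISG20, an interferon-induced exonuclease, was at 748% in WT and 280% in Arp5 KO, beside 109% for Arp8 KO and 488% for Arp8 OE, a difference of -1.42. Both knockout arrays were low for these genes. The interferon list as a whole had a median of -0.11 over 32 probes, with 23 below 0. The remaining probe of that list past 2-fold, for OAS2 at -1.51, lay next to 1 spot bright on WT alone, came to -0.84 under normexp, and a further OAS2 probe gave -0.11. IFI44 was at -0.72, ISG15 at -0.19 and IFIT1 at 0.43.

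TNF, a proinflammatory cytokine, was at 64.5% in WT and 20.1% in Arp5 KO, beside 8.12% for Arp8 KO and 20.5% for Arp8 OE on its brighter probe, with WT the high array. Its 2 probes gave -1.68 and -1.20, the latter coming to -0.43 under normexp. LTB, the neighbouring gene for lymphotoxin beta, was at -1.47. ALOX5AP, which serves leukotriene synthesis, was at 165% in WT and 58.2% in Arp5 KO, beside 45.8% for Arp8 KO and 223% for Arp8 OE, and its 2 probes gave -1.51 and -1.57. NCF1, a cytosolic subunit of the phagocyte NADPH oxidase, gave -1.42 and -1.39, and the chemokine-like gene CKLF -1.54 and -1.48. COTL1, an actin-binding protein, gave -1.05 and -1.04, and CREB5, a transcription factor, -1.45 and -1.35. For ALOX5AP, NCF1, CKLF, COTL1 and CREB5, Arp5 KO and Arp8 KO were the 2 lower arrays.

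Of the cytokine feedback genes, SOCS2 and CISH were higher and SOCS1 was lower. SOCS2, an inhibitor induced by STAT5, was at 63.2% in WT and 328% in Arp5 KO, beside 683% for Arp8 KO and 110% for Arp8 OE on its brighter probe. Both knockout arrays were high, and the 2 probes gave 2.37 and 1.98. CISH, a related inhibitor, was at 9.21% in WT and 21.98% in Arp5 KO, beside 44.7% for Arp8 KO and 15.4% for Arp8 OE, a difference of 1.25 that came to 0.81 under normexp, and a dimmer probe gave 0.60. SOCS1 was at 50.5% in WT and 24.6% in Arp5 KO, beside 27.8% for Arp8 KO and 55.1% for Arp8 OE, a difference of -1.04 that came to -0.78 under normexp. The JAK-STAT list as a whole had a median of 0.05 over 37 probes. Past 2-fold were 3 higher and 1 lower, against 0.687% and 0.9% of all probes. The kinases JAK1 and JAK2 and the factor STAT3 lay between -0.08 and 0.22, and STAT5A was at 0.22 and 0.47.

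The CISH promoter is shown because it held more copies of the STAT motif TTCNNNGAA, which reads the same on both strands, than almost any other promoter. Matches are in capitals, and the window, source and build are those of the heat shock promoters.
CISH, chr3:50611725-50612024, minus strand: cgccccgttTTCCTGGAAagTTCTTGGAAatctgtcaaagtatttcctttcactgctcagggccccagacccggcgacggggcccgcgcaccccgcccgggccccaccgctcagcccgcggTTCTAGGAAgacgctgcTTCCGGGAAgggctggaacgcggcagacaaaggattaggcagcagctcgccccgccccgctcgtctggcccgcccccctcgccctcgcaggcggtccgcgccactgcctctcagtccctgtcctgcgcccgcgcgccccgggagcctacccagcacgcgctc
CISH held 4 matches, and 7 of 35116 promoters (0.0199%) held 4 or more, while 2689 (7.66%) held at least 1. Of 19 genes of the JAK-STAT list with a promoter in the table, CISH was the 1 with a match in this window. SOCS2 had no promoter in the table and was not searched. A copy of GAANNTTC overlapped 2 of the 4 matches.

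RUNX1T1, which encodes the corepressor ETO, and its relative CBFA2T3 were both higher. RUNX1T1 was at 8.19% in WT and 45.6% in Arp5 KO, beside 83.1% for Arp8 KO and 30.1% for Arp8 OE, so that WT was the low array, and the difference was 2.48. CBFA2T3 was at 89.6% in WT and 257% in Arp5 KO, beside 318% for Arp8 KO and 161% for Arp8 OE, a difference of 1.52. The CBFA2T3 probe lay next to 1 spot bright on WT alone, the array on which CBFA2T3 was lowest. The partner RUNX1 was at 0.18 and -0.13.

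ATP7B, a copper-exporting ATPase, had the largest positive difference of the genes with a symbol measured on both arrays, and its probe lay beside no bright spot. It was at 9.82% in WT and 72.3% in Arp5 KO, beside 43.0% for Arp8 KO and 17.3% for Arp8 OE, a difference of 2.88, or 7.36-fold. Its chromosomal neighbours ALG11 and UTP14C were at -1.06 and -0.86, in the opposite direction. The other copper and metallothionein genes lay between -0.24 and 0.29, with MT2A between -0.10 and 0.00 over 3 probes and MT1X at 0.20 and 0.28. S100A4, a calcium-binding protein, was the brightest of the 15 highest genes, at 230% in WT and 1113% in Arp5 KO, beside 313% for Arp8 KO and 449% for Arp8 OE. Arp5 KO alone was high, by 2.28 against WT and by 2.19 under normexp. The neighbouring S100A6 and S100A16 were at 0.30 and 0.66. GNG11, a G-protein gamma subunit, was at 3.80% in WT and 24.5% in Arp5 KO, beside 0.58% for Arp8 KO and 0.74% for Arp8 OE, a difference of 2.69 that came to 1.28 under normexp.

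Genes covered by several probes gave a check within these arrays, though probes of a gene on the same arrays are no replicates of the condition. Of 4205 genes with 2 or more measured probes, 98 had at least 1 probe past 2-fold, 21 had 2 or more past 2-fold the same way and 0 had probes past 2-fold in opposite directions. Of the 21, 4 were higher. Beside SOCS2 these were TFF3, a secreted trefoil peptide, at 1.96 and 1.65, TNFRSF21, death receptor 6, at 1.20 and 1.18, and PHLDA1, an apoptosis-related protein, at 1.19 and 1.09 with 2 further probes at 0.80. The other two TFF3 probes were well above background on 1 array each, and that measured in WT was bounded at -2.20, in the opposite direction, next to a spot bright on WT alone.

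The 17 lower ones included SLC7A11, HSPA1A, TNF, DEPP1 and the 5 genes given after LTB above. GABARAPL1, an autophagy protein of the ATG8 family, was at 113% in WT and 45.3% in Arp5 KO, beside 19.6% for Arp8 KO and 49.3% for Arp8 OE, and its probes gave -1.32 and -1.29. ADORA2A, an adenosine receptor, gave -1.09 and -1.01, and the latter came to -0.98 when arrays were scaled to their medians. COPZ1, a coat protein of Golgi vesicles, was bright, at 1119% in WT and 450% in Arp5 KO, and its probes gave -1.31 and -1.11. ZMYM1, DHRS2, LGALSL and ERMARD gave between -1.66 and -1.09. CLEC2D, a C-type lectin, gave -1.32 and -1.25 on 2 probes and -0.10 and -0.01 on 2 brighter ones. Under normexp, 5 of the 21 genes kept 2 or more probes past 2-fold, namely SLC7A11, HSPA1A, SOCS2, CKLF and GABARAPL1.

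**Figure D4:**
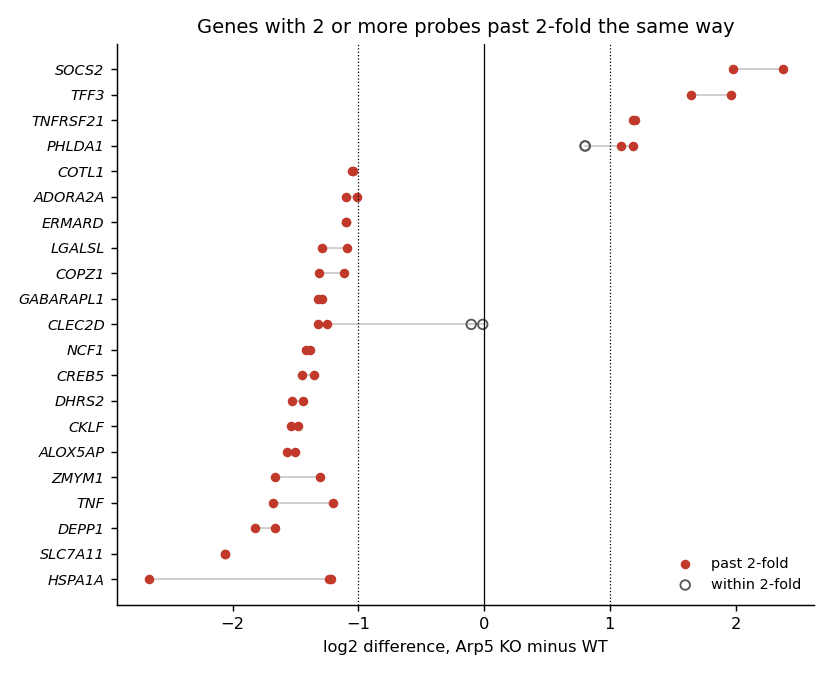
Log2 differences Arp5 KO minus WT (horizontal axis) of every measured probe of the 21 genes with 2 or more probes past 2-fold in the same direction. Filled points lie past 2-fold (dotted lines) and open circles within it. Probes of a gene lie close together except for HSPA1A, with 1 probe at -2.66, and CLEC2D, with 2 probes near 0.

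Many of the largest single-probe differences had a bright neighbour on the slide. A spot was called bright on 1 array alone where it was over 2-fold above the other 3 arrays, and a probe counted as next to it within 20 pixels of the scan. Of the 155 higher probes, 61 (39.4%) lay next to a spot bright on Arp5 KO alone, against 3.10% of all measured probes. Of the 203 lower probes, 57 (28.1%) lay next to one bright on WT alone, against 3.96%. Above the median level these counts were 0 of 18 and 2 of 25. Among called probes of genes with several measured probes, another probe of the gene passed 2-fold the same way for 2 of 43 beside a bright spot and for 41 of 77 beside none. The signal of the adjacent spots thus moved with these differences, and its part in them was not tested.

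The affected names among the extremes were as follows. Of the 15 highest genes, ANKRD24 (2.86), LAMB1 (2.66), CAPRIN2 (2.33), PLD2 (2.29), FRAT1 (2.27), SUPT3H (2.17), TSPAN15 (2.11), ZNF223 (2.09) and YPEL3 (2.07) lay beside such a spot, as did INO80B. Other probes of CAPRIN2 gave -0.01 and 0.05, and another of ZNF223 gave 0.20. Of the 15 lowest genes, KMT2C (-2.63), SRPK3 (-2.59), LGALS4 (-2.54), TRIM62 (-2.46), SC5D (-2.35), CACNA1H (-2.33), SENP6 (-2.24), MUC20 (-2.24) and ANKRD44 (-2.15) did. Further probes for KMT2C, a histone methyltransferase, ranged from -0.08 to 0.22 over 4, those for TRIM62 from -0.08 to 0.15 over 3, and MUC20 had another at 0.55. XYLB, a xylulokinase, was low without such a neighbour, at 33.7% in WT and 3.70% in Arp5 KO, beside 3.70% for Arp8 KO and 4.02% for Arp8 OE, a difference of -3.19 with WT the high array. VEGFA was at -1.20 on 1 probe and between -0.13 and 0.17 on 3 others.

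Which array stood apart differed by direction. An array was counted as apart where it lay over 2-fold from all other 3. Of the 155 higher probes, Arp5 KO stood apart for 60 and WT for 19. Of the 203 lower probes, Arp5 KO stood apart for 15, WT for 82, and both for 1, OCIAD2. Without probes beside a bright spot, the counts were 14 and 17 of 89 higher, and 14 and 38 of 141 lower. The remaining probes had neither array apart.

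A further 1730 probes were well above background on 1 of the 2 arrays, for which the difference is a bound, since the dimmer value was raised to the lowest signal well above background where it lay under it. With them, 411 of 24285 probes (1.69%) were over 2-fold higher and 488 (2.01%) over 2-fold lower. Of the 256 such probes that were higher, 170 (66.4%) lay next to a spot bright on Arp5 KO alone, and of the 285 lower, 175 (61.4%) next to one bright on WT alone. The largest bounds were held by TRIL, S100A10, GSTM3, DYNC1I1 and B3GNT5, at least 24.7-fold, 24.0-fold, 23.5-fold, 15.2-fold and 15.1-fold lower, and by CYP2F1, CDH7, DOK7, PLCL1 and KSR2, at least 16.2-fold, 15.8-fold, 11.1-fold, 10.3-fold and 10.2-fold higher. Further probes of TRIL, GSTM3, DYNC1I1, CYP2F1, CDH7, PLCL1 and KSR2 were well above background on neither array. Apart from S100A10 and DYNC1I1, each of these probes lay next to a spot bright on the brighter array alone. S100A10, a partner of annexin A2, was at 71.8% in WT and 1.19% in Arp5 KO, beside 0.84% for Arp8 KO and 1.78% for Arp8 OE, so that WT alone was high.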

How the data were processed

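Total RNA was labelled with Cy3 and hybridised to single-colour Agilent arrays. The authors deposited scanner output of Feature Extraction 10.10.1.1: linear intensity per spot, with local background subtracted and no scaling between arrays, and per-spot flags. Per the file headers these flags mark outliers, saturation and signal well above background. The deposited series matrix held the same intensity times 1 factor per array.

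Outlier spots (70 in WT, 76 in Arp5 KO) were dropped. Values were scaled on the log2 scale to the 75th percentile and averaged per probe. Of 28354 probes with a RefSeq accession, 27204 matched 18199 genes of the RefSeq table (GRCh38.p14). Named were ACTR5, ACTR8, HMOX1, up to 4 list members past 2-fold per list and direction, the 15 highest and 15 lowest genes, genes with 2 probes past 2-fold the same way and the 5 largest bounds each way. Members and the 39 lists were chosen with earlier results of these data known. With 1 array per group no test was run, and the number of arrays limits precision. Other scalings, normexp (offset 50), filters and thresholds were tried. Python 3.11.15, pandas 2.3.3, R 4.3.3 and limma 3.58.1 were used, and the steps were tested on simulated data. The simulation used the same spot noise at all levels and no effect of adjacent spots. It therefore checked the steps and not how reliable the calls are.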

Additional observations from a re-analysis of the deposited data

How the results depend on the processing

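No paired analysis was possible because each group had 1 array. Of 1093 recomputed values, 961 moved by less than the spot error or 1.5 times, 132 moved further and 0 called values turned sign. Settings that only removed probes left the value of a kept probe unchanged by design, as did gene means for genes with 1 probe. The 961 thus include values that could not move. Under normexp, 96 of 155 values moved further. Under scaling to the median, quantile or cyclic loess normalization or the series matrix, the counts of 155 higher and 203 lower probes, of 75 and 101 probes with Arp5 KO or WT apart and of 21 genes with 2 probes past 2-fold, as well as ACTR5 and HMOX1, did not move so far. The series matrix holds the same intensity times 1 factor per array, so its values were fixed in advance. Scaling to the median only shifts all differences by the same amount. Normexp gave 40 higher and 66 lower probes, 16 and 28 with Arp5 KO or WT apart, 5 genes, -2.79 for ACTR5 and -2.08 for HMOX1. Probes above the median level gave 18 and 25, 3 and 7 apart, and 4 genes. Without probes beside a spot bright on 1 array, 89 were higher, 28 and 55 had Arp5 KO or WT apart, and HMOX1, beside a spot bright on Arp5 KO, had no value. Gene means gave 73 higher and 115 lower genes, bounds 411 and 488 probes, no filter 1077 and 1679 probes and 60 genes, and a 4-fold limit 19 and 33 probes and 1 gene. Of 538 recomputed values of named genes past 2-fold, 34 came within it, 33 of these under normexp. The 538 also include values that could not move. Of 22 list medians beyond the spot error, 3 changed sign: glutathione enzymes to -0.04 above the median level, RUNX and ETO genes to -0.01 without probes beside a bright spot, and erythroid markers to 0.09 as gene means. With 1 array per line and an unsettled heme label, no value has a replicate check, and the cause of the normexp changes beyond its added offset was not tested.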
